A study of Mus musculus with 3 samples.

Results

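The TNF superfamily ligands and receptors were described across 3 immune cell libraries from the mouse intestinal epithelium. The family was taken as the protein-coding genes whose symbol starts with Tnfsf or Tnfrsf plus a digit, apart from 1 symbol that the rule leaves out, together with Tnf, Lta, Ltb, Fas, Fasl, Cd27, Cd70 and Cd40lg. This gave 37 genes, 16 ligands and 21 receptors, of 37224 genes counted. No ID carried the symbol Tnfsf12. All animals were RAG-2 null, lacking a recombinase subunit that T and B cells need to assemble their antigen receptors, and no library came from animals with an intact gene. The iCD8a library came from leukocytes (CD45-positive) that carried CD8α, the ILC1 library from group 1 innate lymphoid cells carrying NKp46 and NK1.1, and the CD11b+ library from myeloid cells positive for CD45 and CD11b and negative for CD8α. The sources used here do not give the strain, age, sex or number of mice behind a library. With 1 library for a population, the differences below have no replicate check and no test between populations could be run.

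Reads counted on genes totalled 21678113 in iCD8a, 22181660 in ILC1 and 30511296 in CD11b+. Levels are counts relative to the gene reads of a library, scaled by TMM factors and given in the usual CPM unit. Calling a gene higher or lower between 2 libraries took a 4-fold or larger difference, a 95% exact counting interval whose bound nearer to 1 was 2-fold or more, and 5 CPM or more in the upper library. The range after a fold is that interval, which covers counting error only and not the spread between animals. Among the sort markers, Cd8a was at 2636, 4.41 and 28.3 CPM in iCD8a, ILC1 and CD11b+ cells, and Ncr1, the NKp46 gene, at 1.44, 396 and 2.23 CPM. Klrb1c, the NK1.1 gene, was highest in ILC1 but also present in iCD8a, at 207, 546 and 14.7 CPM. Itgam, the CD11b gene, was detected throughout, at 362, 187 and 845 CPM. Wherever 3 values are given in a row below, they stand for iCD8a, ILC1 and CD11b+.

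As background, the ligands of this family are mostly trimeric membrane proteins that can be shed, and the receptors are recognised by cysteine-rich repeats outside the cell. Some receptors, such as Fas and TNF receptor 1, carry a death domain that can start apoptosis or inflammatory signalling. Others bind TRAF adaptors and switch on the NF-kappaB transcription factors, which serves costimulation, survival and the building of lymphoid tissue. In the gut the family is known for TNF-driven inflammation, for killing of infected epithelium through Fas ligand and TRAIL, and for lymphotoxin signals that innate lymphoid cells send to stromal and epithelial cells.

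The iCD8a library had fewer TNF family members at 5 CPM or more than the others. Per exon length its leading ligands were Fas ligand and TRAIL and its leading receptors Tnfrsf1b and Tnfrsf9, while Tnf, Tnfsf9, Tnfsf14, Fas and Tnfrsf12a were lower than in both other libraries. The ILC1 library shared the cytotoxic ligands and added Ltb, Tnfsf14, Tnfsf11, Tnfsf4 and the receptor Tnfrsf25. The CD11b+ library was higher than both others in Tnfrsf11a (RANK), Tnfrsf13c (the BAFF receptor), Tnfrsf21 and Tnfsf13. These are 4 of 25 members, beside 10.2% of all genes, and the level of Tnfsf13 is uncertain because another gene overlaps it. Of the 37 members, 25 reached 5 CPM in at least 1 library, and the numbers at that level were 13 in iCD8a, 20 in ILC1 and 19 in CD11b+. Over all genes, 9598, 9445 and 10111 reached 5 CPM in those libraries in the same order.

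Between iCD8a and ILC1, 22 members could be compared, of which 2 were higher in iCD8a and 10 lower. Among 10110 genes compared the rule called 3.52% higher in iCD8a and 4.89% lower. Between iCD8a and CD11b+, 4 of 21 members were higher in iCD8a and 9 lower, beside 6.13% and 13.4% of 10821 genes. Between ILC1 and CD11b+, 11 of 25 members were higher in ILC1 and 6 lower, beside 6.01% and 13.0% of 10734 genes. Members compared are those at 5 CPM or more in at least 1 of the 2 libraries, and the remainder of the 37 could not be called. The median log2 ratio of the members compared was -1.64, -0.94 and 0.90 in these comparisons (iCD8a over ILC1, iCD8a over CD11b+, ILC1 over CD11b+), where all genes compared had medians of 0.06, 0.08 and 0.03. The 3 comparisons share libraries and are not independent.

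Against both other libraries at once, 0 members were higher in iCD8a and 5 were lower, namely Tnfsf14, Tnf, Tnfsf9, Fas and Tnfrsf12a. Of 11063 genes at 5 CPM or more in any library, 1.52% were higher in iCD8a than in both others and 2.21% lower. In ILC1, 5 members were higher than in both others (Tnfsf14, Ltb, Tnfsf11, Tnfsf4 and Tnfrsf25) and 2 lower (Tnfrsf13b and Tnfsf13b), beside 1.68% and 1.40% of all genes. In CD11b+, 4 were higher (Tnfrsf21, Tnfrsf11a, Tnfrsf13c and Tnfsf13) and 4 lower (Fasl, Tnfsf10, Tnfrsf9 and Cd27), beside 10.2% and 2.65%.

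**Figure D1:**
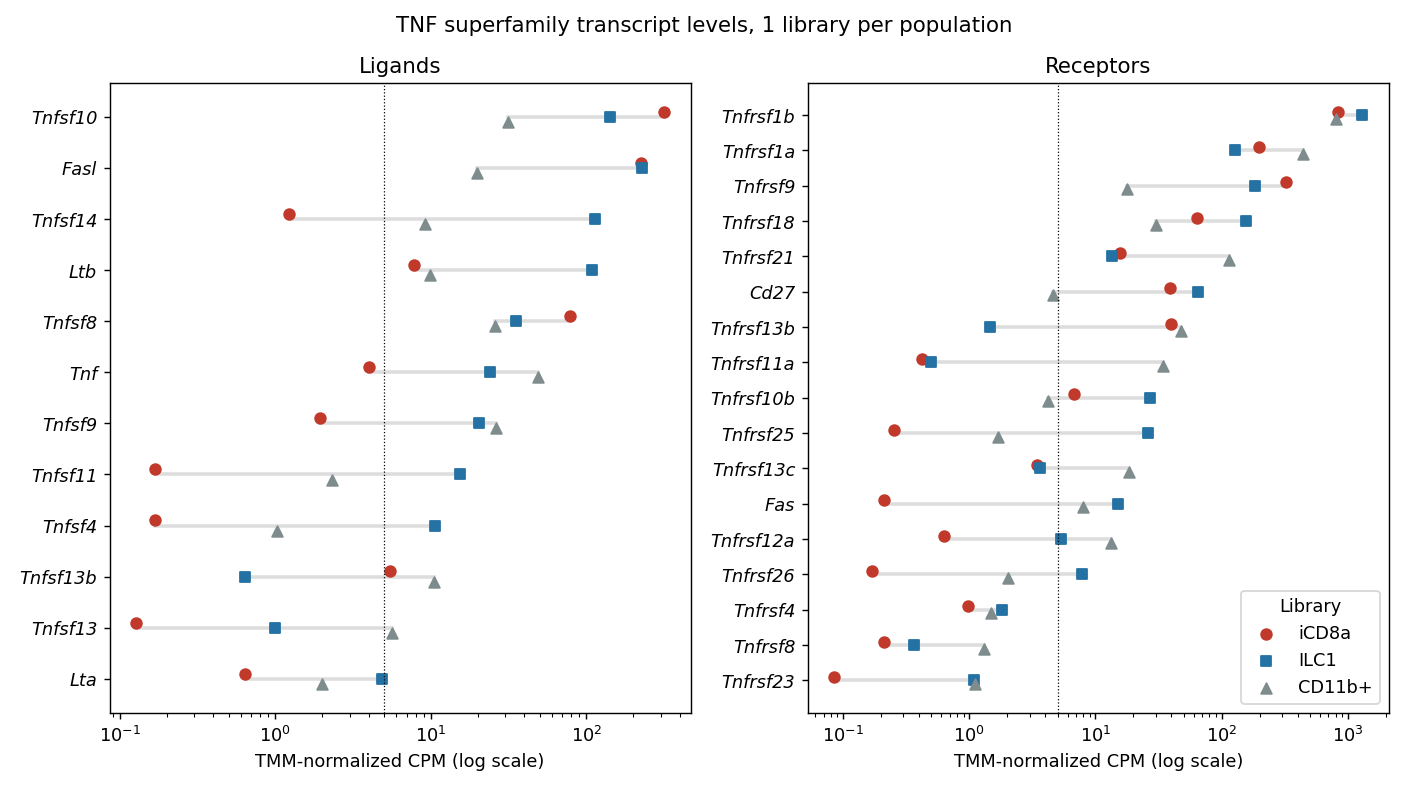
Transcript levels of the 29 members that reached 1 CPM in any library, as TMM-normalized CPM on a log axis, with ligands left and receptors right. Each marker is 1 library (circle iCD8a, square ILC1, triangle CD11b+), the bar joins the lowest and highest library, and the dotted line marks 5 CPM. Tnfsf14 spans 1.23, 114 and 9.18 CPM, whereas Tnfrsf1b stays at 802 CPM or more in every library.

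Tnfsf14 (ENSMUSG00000005824), also called LIGHT, a ligand that signals through the lymphotoxin β receptor, was the ligand with the largest ratio between the lymphoid libraries, although the counting interval of Tnfsf11 overlaps its own. It had 29 counts in iCD8a, 2513 in ILC1 and 259 in CD11b+, or 1.23, 114 and 9.18 CPM. The level in iCD8a was 93.1-fold lower than in ILC1 (64.6 to 139) and 7.48-fold lower than in CD11b+ (5.09 to 11.4), and the level in ILC1 was 12.4-fold higher than in CD11b+ (10.9 to 14.2). Ltb (ENSMUSG00000024399), lymphotoxin β, which forms a membrane heterotrimer with lymphotoxin α, had 183, 2380 and 279 counts, or 7.74, 108 and 9.89 CPM. ILC1 stood alone here, since iCD8a was 14.0-fold lower than ILC1 (12.0 to 16.3) while iCD8a and CD11b+ lay within 1.28-fold of each other (1.06 to 1.55). Lta, the partner of Ltb, followed at 0.635, 4.86 and 1.99 CPM and stayed short of 5 CPM in every library.

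Tnfsf11 (ENSMUSG00000022015), the osteoclast and lymphoid tissue cytokine RANKL, had 4 counts in iCD8a, 340 in ILC1 and 65 in CD11b+, or 0.169, 15.4 and 2.30 CPM. It was 91.3-fold lower in iCD8a than in ILC1 (35.3 to 337) and 6.71-fold higher in ILC1 than in CD11b+ (5.13 to 8.88). Tnfsf4, the OX40 ligand, which costimulates T cells, had 4, 234 and 29 counts, or 0.169, 10.6 and 1.03 CPM. It was 62.8-fold lower in iCD8a than in ILC1 (24.2 to 232) and 10.3-fold higher in ILC1 than in CD11b+ (7.01 to 15.8). For both genes the values against CD11b+ in iCD8a (13.6-fold and 6.07-fold lower) stayed outside the rule, as neither library reached 5 CPM.

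The order was different for Tnf and Tnfsf9, where CD11b+ was the top library. Tnf (ENSMUSG00000024401), the founding inflammatory cytokine of the family, had 95 counts in iCD8a, 526 in ILC1 and 1381 in CD11b+, or 4.02, 23.9 and 49.0 CPM. In iCD8a it was 5.95-fold lower than in ILC1 (4.77 to 7.48) and 12.2-fold lower than in CD11b+ (9.89 to 15.2), and ILC1 and CD11b+ were not called apart. Tnfsf9, the ligand of the costimulatory receptor CD137, had 46, 449 and 743 counts, or 1.95, 20.4 and 26.3 CPM. Its locus overlaps the noncoding gene Gm11110 on the opposite strand, at 5.08, 4.68 and 1.06 CPM, which in iCD8a is above the level of Tnfsf9 itself. Its level in iCD8a was 10.5-fold lower than in ILC1 (7.73 to 14.5) and 13.5-fold lower than in CD11b+ (10.0 to 18.6). Tnf and Tnfsf9 thus had iCD8a as the low library and the other two within 2.05-fold of each other.

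Other markers also differed between the libraries. Of 10 macrophage and monocyte markers compared, 8 were lower in iCD8a than in ILC1 and Ly6c2 was higher. The 12 listed summed to 61.2, 390.1 and 8048 CPM, with none at 0 counts. All 12 were lower in ILC1 than in CD11b+. Markers of ILC2 and ILC3 summed to 226, 1425 and 265 CPM over 10 genes, with Il5 at 0 in every library, and Il23r, Il22, Il7r and Kit were among those lower in iCD8a than in ILC1, while Gata3, Il23r, Il7r and Kit were higher in ILC1 than in CD11b+. Immediate early genes, which respond within minutes to stimulation or cell handling, summed to 3825, 11737 and 8437 CPM over 11 genes. Of these, 5 were lower in iCD8a than in ILC1 and 6 lower in iCD8a than in CD11b+. The part of these cells and of this response in the ligand levels was not tested. In bulk libraries, fewer cells of a type and less RNA per cell cannot be told apart.

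The sequences before the transcription starts of 4 members that were lower in iCD8a than in ILC1 follow, with those of Tnfrsf13b and Tnfrsf11a, which had other patterns, to set the regulatory sequence beside the levels. They are the 250 bases before each start from RefSeq (GRCm38.p6), printed 5′ to 3′ on the gene's strand. No source used here names the authors' build, and the windows were matched by symbol. Capitals mark letters that match, on either strand, the kappaB motif (GGG, any 2 bases, TTTCC), TCACACCT (T-box), TGTGGT (RUNX), TGANTCA (AP-1) or TTCNNNGAA (a STAT element, GAS), where N is any base and no match overlapped another.
Tnfsf14, chr17:57194182-57194431, minus strand: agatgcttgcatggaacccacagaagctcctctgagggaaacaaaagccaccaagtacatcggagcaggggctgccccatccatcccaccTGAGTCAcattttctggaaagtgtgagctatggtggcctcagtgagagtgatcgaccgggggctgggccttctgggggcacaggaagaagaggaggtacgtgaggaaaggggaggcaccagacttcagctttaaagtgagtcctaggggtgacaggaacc
Ltb, chr17:35194257-35194506, plus strand: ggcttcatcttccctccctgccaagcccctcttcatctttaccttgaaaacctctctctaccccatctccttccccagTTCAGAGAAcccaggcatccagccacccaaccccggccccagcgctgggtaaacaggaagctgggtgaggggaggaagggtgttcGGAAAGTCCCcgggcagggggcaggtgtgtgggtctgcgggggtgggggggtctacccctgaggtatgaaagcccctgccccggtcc
Tnfsf11, chr14:78308044-78308293, minus strand: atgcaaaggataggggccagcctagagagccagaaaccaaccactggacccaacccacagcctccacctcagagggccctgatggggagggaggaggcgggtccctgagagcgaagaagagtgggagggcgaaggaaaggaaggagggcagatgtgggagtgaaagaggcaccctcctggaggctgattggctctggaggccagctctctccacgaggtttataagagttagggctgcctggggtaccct
Fas, chr19:34290409-34290658, plus strand: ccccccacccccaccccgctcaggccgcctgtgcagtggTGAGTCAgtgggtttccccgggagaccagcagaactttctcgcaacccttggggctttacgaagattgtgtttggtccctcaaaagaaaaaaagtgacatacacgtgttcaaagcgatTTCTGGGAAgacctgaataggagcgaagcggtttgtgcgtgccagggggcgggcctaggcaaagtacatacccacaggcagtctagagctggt
Tnfrsf13b, chr11:61126505-61126754, plus strand: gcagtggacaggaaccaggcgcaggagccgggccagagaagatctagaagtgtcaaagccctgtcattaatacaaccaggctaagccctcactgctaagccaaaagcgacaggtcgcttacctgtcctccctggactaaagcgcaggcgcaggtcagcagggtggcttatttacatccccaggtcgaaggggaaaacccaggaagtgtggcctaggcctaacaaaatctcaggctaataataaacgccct
Tnfrsf11a, chr1:105780473-105780722, plus strand: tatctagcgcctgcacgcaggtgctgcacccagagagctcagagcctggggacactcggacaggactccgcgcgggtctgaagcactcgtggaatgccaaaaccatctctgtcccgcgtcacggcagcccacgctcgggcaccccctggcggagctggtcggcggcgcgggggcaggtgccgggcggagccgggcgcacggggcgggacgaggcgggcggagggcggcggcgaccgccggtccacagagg

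The Ltb window held a kappaB match, GGAAAGTCCC, 87 bases before the start, and a GAS match, TTCAGAGAA, 172 bases before it. Tnfsf14 held an AP-1 match, TGAGTCA, and Fas held an AP-1 and a GAS match, TTCTGGGAA. Tnfsf11, Tnfrsf13b and Tnfrsf11a held none of the 5 motifs in these windows. RefSeq windows were matched for 29 of the 37 members, in 33 windows. Of these, 3 held kappaB, 0 T-box, 3 RUNX, 6 AP-1 and 8 GAS letters, where the shares over all 32851 windows were 1.41%, 1.12%, 14.0%, 6.75% and 7.02%. The kappaB matches lay in Ltb, Tnfrsf25 and Tnfrsf9. A match describes letters in a window and not a bound site.

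The death ligands set the lymphoid libraries apart from CD11b+ and much less from each other. Fasl (ENSMUSG00000000817), Fas ligand, which kills Fas-bearing cells, had 5288 counts in iCD8a, 5025 in ILC1 and 555 in CD11b+, or 224, 228 and 19.7 CPM. Its ratio between iCD8a and ILC1 had an interval that included 1, while it was 11.4-fold higher in iCD8a than in CD11b+ (10.4 to 12.4) and 11.6-fold higher in ILC1 than in CD11b+ (10.6 to 12.7). Tnfsf10 (ENSMUSG00000039304), TRAIL, a ligand that kills through death receptor 5, had 7499, 3124 and 887 counts, or 317, 142 and 31.4 CPM. It was 2.24-fold higher in iCD8a than in ILC1 (2.14 to 2.33), short of the rule, and 10.1-fold (9.41 to 10.8) and 4.51-fold (4.19 to 4.87) higher in iCD8a and in ILC1 than in CD11b+. Tnfsf8, the CD30 ligand, was at 78.1, 35.4 and 25.9 CPM and passed the rule in no comparison. Natural killer and ILC1 markers summed to 615, 3455 and 94.2 CPM over 9 genes and T-lineage markers to 5505, 140.4 and 245 CPM over 8. Of the T-lineage sums, Cd3g and Cd8a held 2749 and 2636 CPM in iCD8a, and Cd3g held 205 CPM in CD11b+. In iCD8a, 5 T-lineage markers were higher than in each other library, but Cd28 was lower than in ILC1 and Cd6 lower than in CD11b+. Some lymphoid transcripts were thus present in CD11b+, and their part in its Fasl and Tnfsf10 counts was not tested.

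Among receptors with a death domain, Fas and Tnfrsf25 had the widest gaps between iCD8a and ILC1. Fas (ENSMUSG00000024778) had 5 counts in iCD8a, 329 in ILC1 and 226 in CD11b+, or 0.212, 14.9 and 8.01 CPM. It was 70.7-fold lower in iCD8a than in ILC1 (30.0 to 219) and 37.9-fold lower than in CD11b+ (16.0 to 118), and the 5 counts in iCD8a lay near the floor of 3 counts (0.127 CPM). Tnfrsf25 (ENSMUSG00000024793), or DR3, the receptor for the cytokine TL1A, was called higher in ILC1 than in both others, with 6, 571 and 48 counts, or 0.254, 25.9 and 1.70 CPM. It was 102-fold lower in iCD8a than in ILC1 (46.7 to 279.6) and 15.2-fold higher in ILC1 than in CD11b+ (11.3 to 20.9). Tnfrsf10b, the mouse TRAIL receptor with a death domain, had 6.73, 26.9 and 4.22 CPM. It was 6.38-fold higher in ILC1 than in CD11b+ (5.23 to 7.83) and lay just short of the fold of 4 between iCD8a and ILC1 (interval 3.35 to 4.79), which it passed with DESeq2 size factors, upper-quartile factors, thinned libraries or protein-coding totals.

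Tnfrsf21, or DR6, and Tnfrsf1a were the death-domain receptors with their peak in CD11b+. Tnfrsf21 had 15.7, 13.5 and 115 CPM, and was 7.29-fold lower in iCD8a (6.54 to 8.13) and 8.47-fold lower in ILC1 (7.52 to 9.57) than in CD11b+. Tnfrsf1a (ENSMUSG00000030341), TNF receptor 1, had 4632, 2803 and 12535 counts, or 196, 127 and 444 CPM, and passed the rule in no comparison. Intestinal epithelial markers were lower in iCD8a than in CD11b+ for 12 of 15 genes and in ILC1 for 13 of 15. They summed to 799, 435 and 1197 CPM, with none at 0. Much of the iCD8a and ILC1 sums came from Epcam (154, 31.3 and 180 CPM), Cdh1 (359, 289 and 208 CPM) and Cdh17 (193, 19.1 and 72.3 CPM). Cdh1 and Cdh17 lay higher in iCD8a than in CD11b+, short of the rule. Epcam and Cdh17 were called higher in iCD8a than in ILC1. The part of epithelial cells in the Tnfrsf21 and Tnfrsf1a levels was not tested.

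Receptors that bind TRAF adaptors without a death domain included the leading receptor of each library per exon length, Tnfrsf1b. Tnfrsf1b (ENSMUSG00000028599), TNF receptor 2, which binds membrane TNF and lymphotoxin α, had 19601 counts in iCD8a, 28724 in ILC1 and 22639 in CD11b+, or 829, 1305 and 802 CPM. These 3 levels lay within 1.63-fold of each other. Tnfrsf9 (ENSMUSG00000028965), CD137, a receptor induced on activated lymphocytes, had 7662, 4013 and 500 counts, or 324, 182 and 17.7 CPM. It was 1.78-fold higher in iCD8a than in ILC1 (1.71 to 1.85), and the excess over CD11b+ was 18.3-fold for iCD8a (16.7 to 20.1) and 10.3-fold for ILC1 (9.37 to 11.3). Its locus overlaps Camta1 on the opposite strand, which had 10.2, 8.91 and 13.0 CPM, and without a stated strand setting reads of overlapping genes cannot be told apart.

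Tnfrsf18, or GITR, and Cd27, costimulatory receptors of T cells and natural killer cells, both peaked in ILC1. Tnfrsf18 had 63.9, 155 and 30.1 CPM, and was 5.14-fold higher in ILC1 than in CD11b+ (4.77 to 5.55), with iCD8a between them and called apart from neither. Tnfrsf18 overlaps Gm16008 on the opposite strand, at 0.889, 6.04 and 1.28 CPM. Cd27 had 919 counts in iCD8a, 1432 in ILC1 and 129 in CD11b+, or 38.9, 65.1 and 4.57 CPM. It was 8.50-fold higher in iCD8a (7.07 to 10.3) and 14.2-fold higher in ILC1 (11.9 to 17.2) than in CD11b+. Cd27 overlaps Vamp1 on the opposite strand, at 37.3, 46.0 and 17.1 CPM. Tnfrsf12a, or Fn14, the receptor for TWEAK, was low in iCD8a, with 15, 118 and 375 counts or 0.635, 5.36 and 13.3 CPM, which was 8.45-fold below ILC1 (4.92 to 15.6) and 20.9-fold below CD11b+ (12.5 to 37.8). Tnfrsf26, an orphan receptor of mice, had 0.169, 7.82 and 2.02 CPM and was 46.2-fold lower in iCD8a than in ILC1 (17.7 to 171).

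The 2 members called higher in iCD8a than in ILC1, Tnfrsf13b and Tnfsf13b, both belong to the BAFF and APRIL system, which sustains B cells and plasma cells. The other members of that system, Tnfrsf13c, Tnfrsf17 and Tnfsf13, lay under 5 CPM in both libraries and could not be called between them. Of these, Tnfsf13 had the opposite direction, 7.87-fold lower in iCD8a than in ILC1 (2.37 to 41.1), from 3 and 22 counts. Tnfrsf13b (ENSMUSG00000010142), or TACI, a receptor for both cytokines, had 939 counts in iCD8a, 32 in ILC1 and 1350 in CD11b+, or 39.7, 1.45 and 47.9 CPM. It was 27.3-fold higher in iCD8a than in ILC1 (19.2 to 40.2) and 32.9-fold lower in ILC1 than in CD11b+ (23.2 to 48.3), with iCD8a and CD11b+ within 1.20-fold (1.11 to 1.31). Tnfsf13b, BAFF itself, had 129, 14 and 297 counts, or 5.46, 0.636 and 10.5 CPM, and was 8.58-fold higher in iCD8a than in ILC1 (4.93 to 16.1). Both genes thus had ILC1 as the low library. Tnfrsf13c, the BAFF receptor, took another course, with 3.43, 3.64 and 18.3 CPM, and was 5.35-fold lower in iCD8a (4.22 to 6.84) and 5.04-fold lower in ILC1 (3.98 to 6.46) than in CD11b+. Tnfrsf17, or BCMA, a receptor of plasma cells, had 0 counts in each library, which allows up to 0.127, 0.136 and 0.106 CPM.

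B-lineage markers were near 0 in all libraries apart from Cd79b. The 9 markers summed to 26.3, 3.45 and 8.54 CPM, of which Cd79b made up 24.6, 2.82 and 5.60. Pax5 was at 0 in each library, and Ms4a1 had 0, 0 and 6 counts. Of 10 plasmacytoid dendritic cell markers, Siglech, Spib, Ly6d and Cox6a2 were called higher in iCD8a than in ILC1 and 0 lower. Short of the rule, Bst2, Tcf4, Ccr9 and Pacsin1 lay higher in iCD8a, and Irf8 (470 against 1183 CPM) and Runx2 (88.4 against 150 CPM) lower. In CD11b+, the 4 called markers had 12.9, 11.4, 3.51 and 0.851 CPM, and the others ranged from 2.55 (Pacsin1) to 239 CPM (Irf8). The 10 summed to 1450.1, 1516 and 488 CPM and none was at 0. Of 9 markers of classical dendritic cells, Zbtb46 was lower in iCD8a than in ILC1 while Flt3, Clec9a, Cd209a and Clec10a were higher, with sums of 964, 1128 and 10142 CPM and none at 0. The part of either cell type in the Tnfrsf13b and Tnfsf13b levels was not tested. Tnfsf13, or APRIL, had 3, 22 and 158 counts, or 0.127, 1.00 and 5.60 CPM. It was 44.1-fold lower in iCD8a (14.8 to 216, from 3 counts) and 5.60-fold lower in ILC1 (3.57 to 9.19) than in CD11b+. Its locus overlaps the read-through gene Tnfsfm13 on the same strand, at 23.1, 29.5 and 14.6 CPM, so its level is uncertain. As no ID carried the symbol Tnfsf12, reads of that neighbouring gene, TWEAK, may be among those counted as Tnfsfm13, which was not tested.

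RANK, the receptor for RANKL, which myeloid cells need to become osteoclasts, was found almost entirely in CD11b+. Tnfrsf11a (ENSMUSG00000026321) had 10 counts in iCD8a, 11 in ILC1 and 966 in CD11b+, or 0.423, 0.50 and 34.2 CPM. It was 80.9-fold lower in iCD8a (43.8 to 169) and 68.5-fold lower in ILC1 (38.1 to 138) than in CD11b+. Granulocyte and mast cell markers summed to 12.4, 10.3 and 272 CPM over 12 genes, with Elane at 0 throughout. All 12 macrophage and monocyte markers were lower in iCD8a and in ILC1 than in CD11b+. Classical dendritic cell markers summed to 964, 1128 and 10142 CPM over 9 genes. Of these, 5 were lower in iCD8a than in CD11b+ and Clec9a was higher, and 5 were lower in ILC1 than in CD11b+. The part of these cell types in the Tnfrsf11a level was not tested. The ligand of RANK had its peak in ILC1, and its decoy receptor Tnfrsf11b, osteoprotegerin, had 5, 4 and 9 counts.

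**Figure D2:**
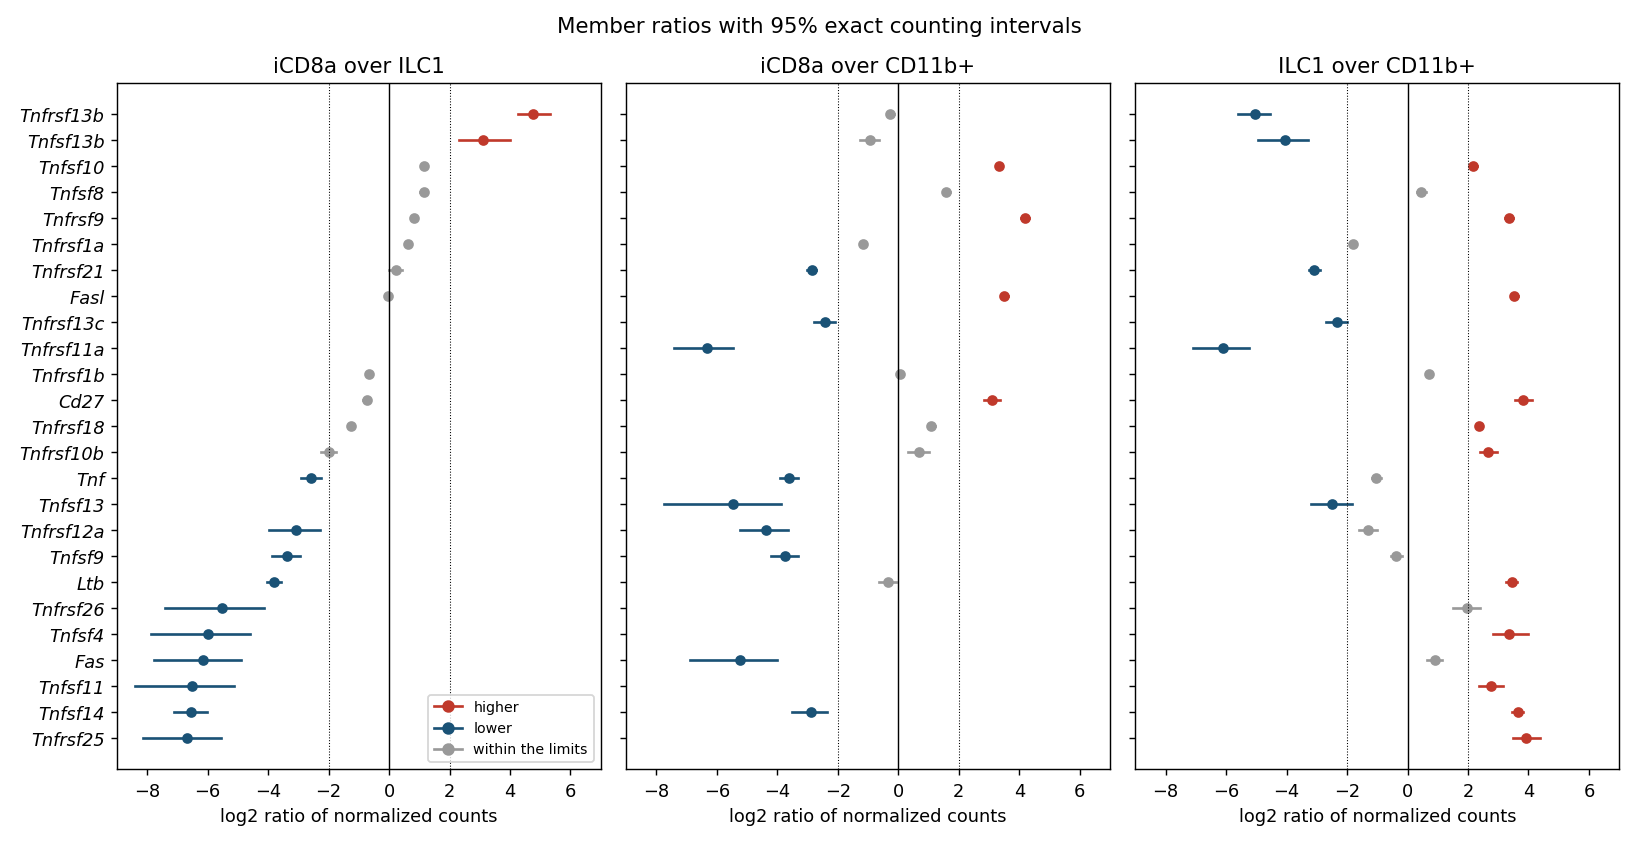
Log2 ratios of normalized counts for the members at 5 CPM or more in either library of a comparison, with 95% exact counting intervals, ordered by the ratio of iCD8a over ILC1. Red points were called higher in the library named on top of the ratio, blue points lower and grey points neither, and dotted lines mark a fold of 4. The left panel has 10 blue points and 2 red ones, Tnfrsf13b and Tnfsf13b.

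The 12 members below 5 CPM in all libraries held 5 ligands and 7 receptors. Lta, Tnfrsf8 (CD30), Tnfrsf4 (OX40) and Tnfrsf23 reached between 1 and 5 CPM in at least 1 library. Tnfrsf4 had 0.973, 1.82 and 1.49 CPM, so the receptor of the OX40 ligand was low in all 3. The other 8 members, Cd70, Cd40lg, Tnfsf15, Tnfsf18, Tnfrsf11b, Tnfrsf17, Tnfrsf19 and Tnfrsf22, stayed at or under 0.851 CPM. Cd40lg, the helper T cell ligand, had 0, 1 and 2 counts, and Cd70, the ligand of CD27, had 0, 0 and 3. Tnfrsf22, Tnfrsf23 and Tnfrsf26 are neighbouring paralogs, between which reads can be split or lost, which makes each of their levels uncertain.

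Levels of different genes were compared per kilobase of exon in the GENCODE annotation. On that scale the 16 ligands summed to 208 CPM per kb in iCD8a, 335 in ILC1 and 93.1 in CD11b+. Fasl and Tnfsf10 made up 55.6% and 29.0% of the sum in iCD8a. In ILC1 Fasl took 35.2%, Ltb 21.3% and Tnfsf14 18.5%, and in CD11b+ the leading ligands were Tnf with 32.1% and Tnfsf9 with 21.9%. The 21 receptors summed to 493, 624 and 484 CPM per kb. Tnfrsf1b led in each library, with 44.1%, 54.8% and 43.4% of the receptor sum, and the receptor next to it was Tnfrsf9 in iCD8a (24.2%), Tnfrsf18 in ILC1 (16.3%) and Tnfrsf1a in CD11b+ (35.4%).

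**Figure D3:**
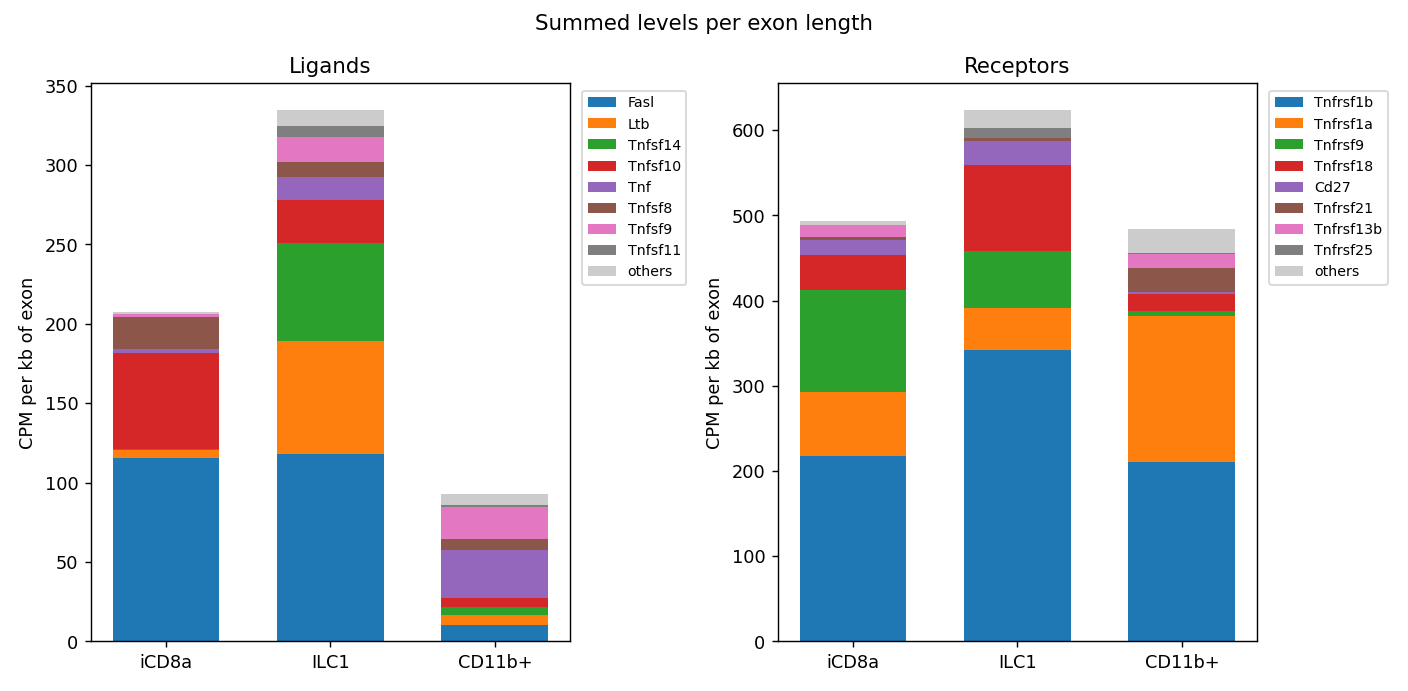
Summed levels of ligands and of receptors in CPM per kb of exon, by library, with the 8 members of highest level in colour and the rest in pale grey. The ligand bars reach 208, 335 and 93.1 CPM per kb, and the Ltb and Tnfsf14 segments are wide in ILC1 alone.

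Ligands and their known receptors were set side by side on the same scale. For Fas ligand and Fas, iCD8a had 116 CPM per kb of the ligand and 0.103 of the receptor, ILC1 had 118 and 7.25, and CD11b+ had 10.2 and 3.89. For TRAIL and Tnfrsf10b the levels were 60.3 and 1.23 in iCD8a, 27.0 and 4.93 in ILC1, and 5.97 and 0.774 in CD11b+. Both death ligands therefore exceeded their receptor in each library. The reverse held for Tnfsf9 and its receptor Tnfrsf9 in the lymphoid libraries, at 1.51 against 119 CPM per kb in iCD8a and 15.8 against 67.0 in ILC1, whereas CD11b+ had 20.4 of the ligand and 6.51 of the receptor.

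Several pairs were divided between libraries. RANKL was at 6.91 CPM per kb in ILC1 and RANK at 5.72 in CD11b+, and each was at most 1.03 and 0.0835 CPM per kb outside that library. Ltb and Tnfsf14 were at 71.3 and 61.8 CPM per kb in ILC1, while Ltbr, a receptor for both, was at 7.14, 2.91 and 35.6 CPM per kb. Tnfsf15, which encodes TL1A, the ligand of Tnfrsf25, was at 0.114, 0.0136 and 0.254 CPM per kb, so its receptor in ILC1 (11.4) had little ligand transcript in any of these libraries. Tnfsf18, the GITR ligand, had 1, 0 and 1 counts beside 41.9, 101 and 19.7 CPM per kb of Tnfrsf18. For Cd27 the ligand Cd70 was likewise at 0 counts in both lymphoid libraries and at 3 in CD11b+.

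Members that lie side by side in the genome could differ widely in level. In the GENCODE annotation, 12 pairs of members on 5 chromosomes had at most 3 protein-coding genes between them. Ltb, Tnf and Lta lie side by side on chromosome 17, yet Ltb and Lta peaked in ILC1 and Tnf in CD11b+. Tnfsf9, Cd70 and Tnfsf14 form another run on chromosome 17, of which Tnfsf9 was within 1.29-fold between ILC1 and CD11b+, Cd70 was near 0 and Tnfsf14 was 12.4-fold higher in ILC1. On chromosome 1, Tnfsf4 and Fasl flank Tnfsf18, and Fasl was level between the lymphoid libraries where Tnfsf4 was 62.8-fold lower in iCD8a. On chromosome 4, Tnfrsf18 lies next to Tnfrsf4, and Tnfrsf1b next to Tnfrsf8, each an abundant gene beside one under 2 CPM.

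Genes that act below the receptors were then read from lists by function. Over all genes compared, 3.52% were called higher in iCD8a than in ILC1 and 4.89% lower, with a median log2 ratio of 0.06. The shares were 6.13% and 13.4% for iCD8a against CD11b+, and 6.01% and 13.0% for ILC1 against CD11b+. Lists this short would hold few calls at those shares, so 0 calls in a list is no result about it. Of 13 listed adaptors, 12 could be compared, and 0 were called between iCD8a and ILC1, with a median log2 ratio of -0.87 there. Traf1, an adaptor that is also an NF-kappaB target, had 160, 618 and 150.4 CPM and was called higher in ILC1 than in CD11b+, as were Traf4 and Fadd. Of 15 genes of the NF-kappaB branch, 4 were lower in iCD8a than in ILC1 and 0 higher, with a median of -1.23. These were Rel (57.4 against 367 CPM), Nfkb1 (103 against 578 CPM), Nfkb2 (149 against 752 CPM) and Map3k14 (56.0 against 293 CPM), the last encoding the kinase of the noncanonical pathway. Rel and Map3k14 were also lower in iCD8a than in CD11b+, where they had 342 and 565 CPM.

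Of 9 genes of ubiquitin editing, 0 were called between iCD8a and ILC1. Tnfaip3, which encodes the feedback enzyme A20, had 2002, 7193 and 1183 CPM, and was called higher in ILC1 than in CD11b+. None of 12 genes of the death branch was called in any comparison by the rule. Their medians were 0.08, -0.07 and -0.21 in the same 3 comparisons as above, beside 0.06, 0.08 and 0.03 over all genes compared. Casp8, the initiator caspase below Fas, had 107, 153 and 92.1 CPM. Of 8 genes of ligand shedding, 0 were called between iCD8a and ILC1, and Adam8 and Mmp7 were lower in both than in CD11b+. Mmp7 reached only 5.10 CPM in CD11b+. Rhbdf2 (25.4, 16.7 and 92.1 CPM) was called lower in ILC1 than in CD11b+. Adam17, the protease that releases TNF, had 82.9, 87.3 and 152 CPM. Among 8 family genes outside the rule, Cd40 (1.10, 1.86 and 59.4 CPM) and Ltbr (16.8, 6.86 and 83.9 CPM) were lower in iCD8a and in ILC1 than in CD11b+.

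**Figure D4:**
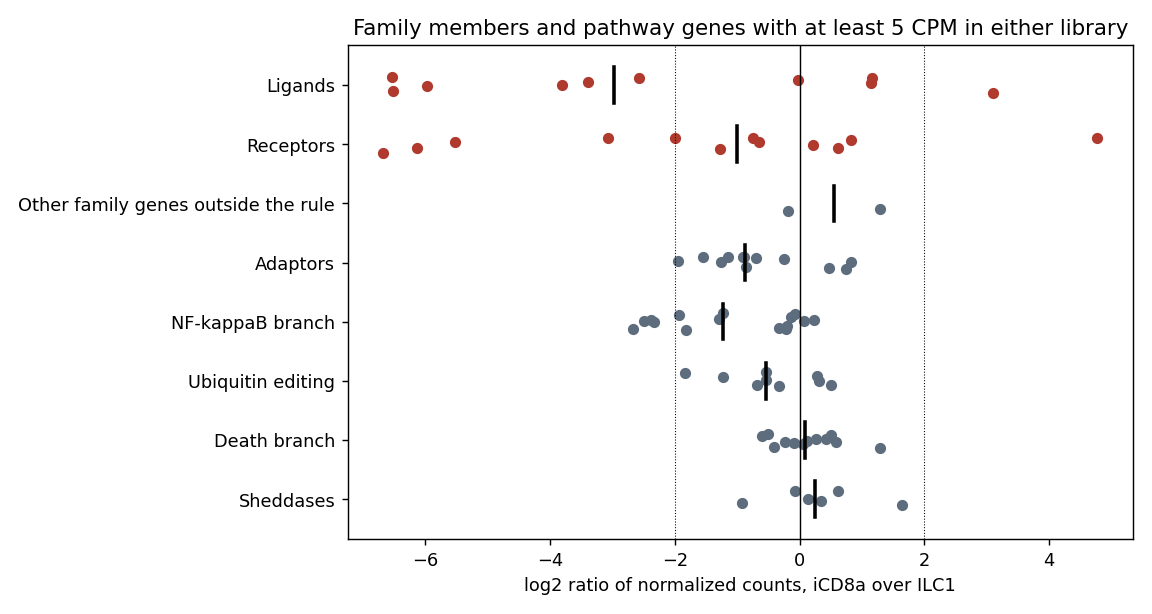
Log2 ratios of iCD8a over ILC1 for ligands and receptors (red) and for the pathway lists (grey), for genes at 5 CPM or more in either library. Each point is 1 gene, shifted vertically for legibility, black bars are medians and dotted lines mark a fold of 4. The 12 death branch genes compared all lie inside the dotted lines, and 12 of the 22 family members lie outside them. Over all genes compared, 3.52% were called higher in iCD8a and 4.89% lower.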

How the data were processed

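RNA-seq counts of 3 sorted populations, with 1 library each, were analysed by cell type label. Per the series' design text, the authors aligned reads with TopHat and counted them with HTSeq, and CASAVA 1.9 and TopHat2 stand in the submitters' processing notes. The deposited values are unnormalized counts for each Ensembl gene. The sources used here name no genome build, annotation or strand setting. The 5 rows that name no gene were left out, among them alignments that were not unique, at 26.9%, 34.5% and 30.5% of the summed column for iCD8a, ILC1 and CD11b+. Genes of the mitochondrial genome held 1.60%, 2.09% and 9.53% of gene counts.

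Symbols, biotypes and exon lengths came from GENCODE M21 by Ensembl ID, which matched 35449 of 37224 IDs. TMM factors (edgeR 4.0.16, R 4.3.3) were 1.09, 0.992 and 0.925. Ratios carry 95% exact conditional binomial (Clopper-Pearson) intervals (scipy 1.17.1). Since no group was replicated, no count model could be tested. Only normalization factors were taken from edgeR and DESeq2 1.42.0, and no p-value was computed. Log2 medians use a prior count of 0.5. The libraries carry no stated molecular identifiers, and PCR copies may inflate reads, so counting error is all that the intervals and the 3-count floor describe. The calling rule was run on simulated counts that carry counting error only, which says nothing of the spread between animals. The members, gene lists and motifs were chosen with earlier results of these data known, and all members are accounted for in the text. Alternatives were unscaled CPM, DESeq2 and upper-quartile factors, minimums of 1 and 20 CPM, folds of 2 and 8, thinning to 21678113 counts, and totals without mitochondrial genes or with protein-coding genes only. The list of immediate early genes was added after seeing the data. Every member is a named gene by the rule, other genes are named from fixed lists, and the 6 printed windows were chosen after their genes' values were seen.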

Additional observations from a re-analysis of the deposited data

Results flagged for a closer look

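Signal outside the members was present at the APRIL locus. The read-through gene Tnfsfm13 had 547, 650 and 411 counts in iCD8a, ILC1 and CD11b+ cells, and the antisense gene Tnfsf13os had 4, 2 and 61 counts, beside 3, 22 and 158 counts for Tnfsf13. No ID carried the symbol Tnfsf12, the other gene of this read-through, so its reads cannot be told apart from those of Tnfsfm13. Non-unique alignments, counted on no gene, had a share of 26.9% for iCD8a, 34.5% for ILC1 and 30.5% for CD11b+ of each column's sum. Both signals exceed the floor of 3 counts in a library, apart from Tnfsf13os in ILC1.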

How the results depend on the processing

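No paired analysis was possible because each population had 1 library, which also left no replicate to leave out. Of 12 counts of members under 10 alternatives, 103 of 120 values stayed within 1.5 times of the reported one. Of 1110 member ratios 0 reversed among those called, but this check could hardly fail. The CPM minimums and folds leave every ratio unchanged, and shifts from scaling are small beside a called fold of 4. Unscaled CPM shifted all ratios by 0.10 to 0.24 on the log2 scale. With a minimum of 1 CPM, members lower in iCD8a than in CD11b+ numbered 15 and those lower in iCD8a than in both others 10, with the last count gaining Tnfsf11, Tnfsf4, Tnfrsf23, Tnfrsf25 and Tnfrsf26. With a minimum of 20 CPM, members higher in iCD8a than in ILC1 numbered 1 and lower 5, those lower than in CD11b+ 4 for iCD8a and 3 for ILC1, those lower than in both others 2 for iCD8a and 1 for ILC1, and those higher than in both others 3 for ILC1 and 2 for CD11b+. With a fold of 2, members higher in iCD8a than in ILC1 numbered 4, and those higher than in both others 2 for iCD8a (Tnfsf10 and Tnfsf8), 8 for ILC1 and 7 for CD11b+. With a fold of 8, members higher in ILC1 than in CD11b+ numbered 7, those lower in iCD8a than in both others 3, and those higher in CD11b+ than in both others 1. These moves follow from the altered thresholds. Such thresholds also alter the share of all genes called, so these counts are not set against a background here. Under the scaling, depth and total alternatives no member lost its call, and Lta, Tnfrsf10b or Tnfrsf26 gained one under some. Depth limits members with few counts in 1 library, such as Tnfsf4, Tnfsf11 and Tnfrsf26 with 4 each in iCD8a, whose intervals are wide.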
